A study of Mus musculus with 6 samples.

Results

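Complement genes of NIH3T3 fibroblasts were described here through 7 genes of 55401 listed in the deposited tables: C3, C4b, C1ra, C1s1, Cfb, Serping1 and Cd55. They were chosen by name, as the rows that carry these gene symbols, and each symbol had 1 row. NIH3T3 is an immortalised line of mouse embryonic fibroblasts. All 6 libraries were labelled as wild type, and the groups were DMSO, the solvent control, and IPRN, with 3 libraries each. The title of the series names angelicin, a furanocoumarin found in plants, and the design text says that hydrogen peroxide and TGF-β were used to stimulate the cells before IPRN was added. The labels give neither a dose nor a time, and whether the stimuli were also given to the DMSO cells is not stated in them. Nor is it stated that the libraries of a group came from separate cultures, so a p-value here measures the spread among 3 libraries, part or all of which may be technical.

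Complement is a cascade of blood and tissue proteins that marks surfaces for clearance and recruits inflammatory cells. The classical pathway starts when the recognition protein C1q activates the proteases C1r and C1s, which cleave C4 and C2 to form an enzyme that cleaves C3. The alternative pathway amplifies that step through factor B, and inhibitors in plasma and on cell membranes hold it back. The liver makes most circulating complement, and fibroblasts are among the cells that make part of it locally, with several of these genes inducible by inflammatory cytokines.

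DMSO 1 and IPRN 3 stood apart from the other libraries in their transcripts of other cell types. All 14 fibroblast markers were detected in every library, and they summed to 24557 to 25654 CPM in DMSO and 26930 to 29521 CPM in IPRN. Of these 14 markers, 7 were called, where 5.47% of all genes tested were called. Dcn (2.07-fold), Lum (2.82-fold), Pdgfra and Postn were lower under IPRN, and Acta2, Col5a1 and Fn1 were higher. How these changes relate to those of the complement genes was not tested. The 28 liver markers summed to 5.54, 80.1 and 46.6 CPM in DMSO and 148.0, 53.2 and 6.29 CPM in IPRN, with 21 of 28 at 0 in DMSO 1 and in IPRN 3 and 0 of 28 at 0 in the other libraries. The 10 macrophage markers summed to 13.4 to 26.2 CPM in the DMSO libraries and 23.1, 23.0 and 135.6 CPM in the IPRN libraries. Endothelial and epithelial markers summed to at most 3.40 and 2.52 CPM. In bulk samples, fewer cells of a type and less RNA per cell cannot be told apart. Where the liver and macrophage transcripts in these libraries of a fibroblast line came from was not tested.

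Of the 7 genes, C3, C1s1, C1ra and Cd55 fell under IPRN, by 1.58-fold, 1.64-fold, 1.40-fold and 1.32-fold, and 0 rose. C4b, Cfb and Serping1 did not pass the test, and their levels were low. Of 17159 genes tested by edgeR's quasi-likelihood test (Benjamini-Hochberg adjustment over all of them, threshold 0.05), 5.47% changed, 3.01% lower and 2.46% higher. All 7 passed the filter on low counts. Of these, 4 were lower and 0 higher at an unadjusted p under 0.05, against 10.8% and 11.2% of all genes tested. DESeq2 also called 4 lower and 0 higher, with no adjusted p for Serping1. Over all genes, DESeq2 called 941 lower and 967 higher among 12917 with an adjusted p. The median log2 fold change was -0.40 over the 7 genes and 0.0016 over all genes tested. The 7 genes were chosen with earlier results of these data known. Their counts and median beside those of all genes are therefore a description, not a test of complement genes. The normalised levels of the groups did not overlap for the 4 genes that fell, as for 29.6% of all tested genes, 14.7% on the lower and 14.9% on the higher side.

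**Figure D1:**
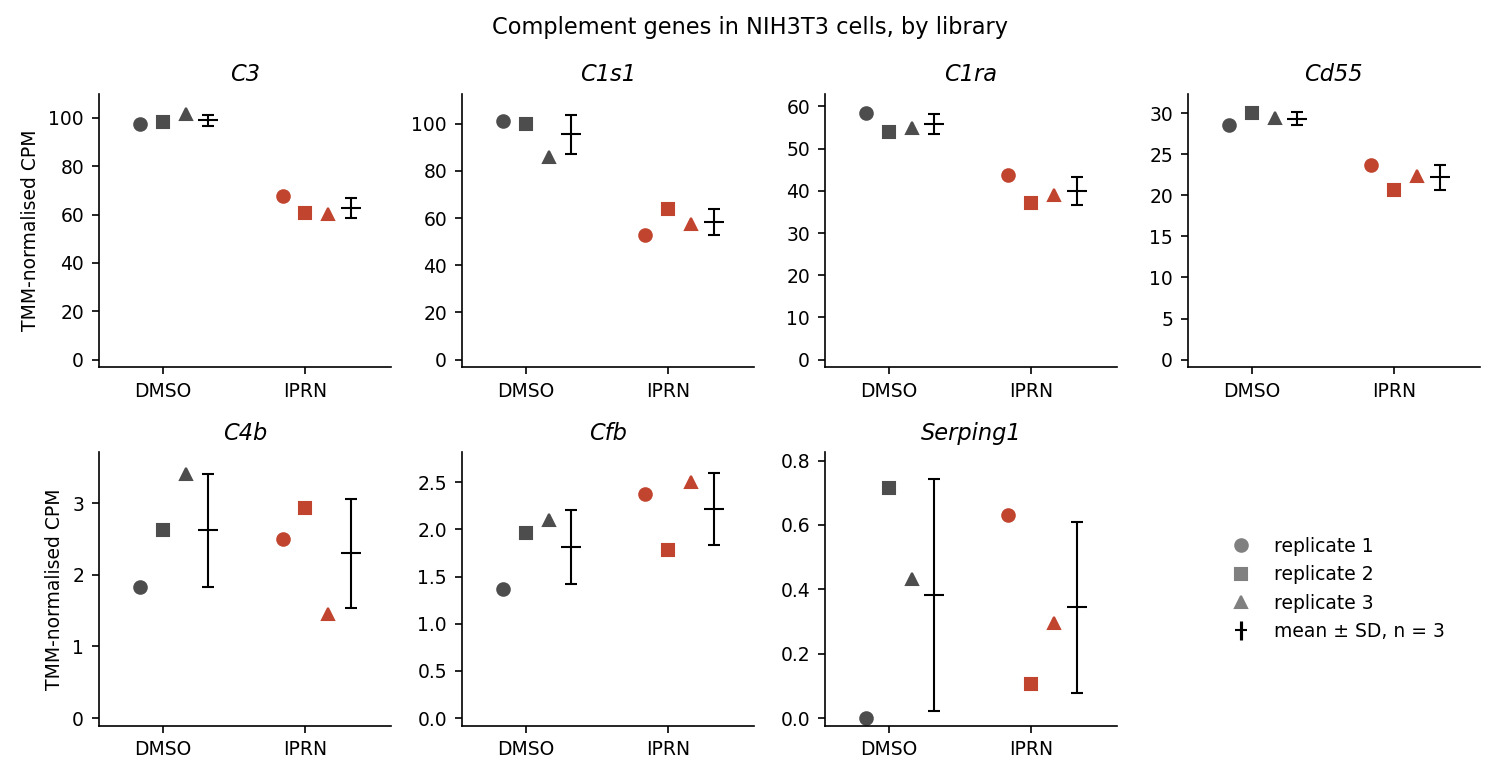
Level of each of the 7 complement genes in every library, as TMM-normalised CPM (linear axis from 0), with the mean and SD of the 3 libraries per group beside the points. For C3, C1s1, C1ra and Cd55 all 3 IPRN libraries sit below all 3 DMSO libraries, while for C4b, Cfb and Serping1 the groups overlap.

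The stretches of 250 bases upstream of C3, C1s1 and Cd55 are shown because these genes fell together and are known from textbook work to respond to inflammatory factors. Sequences were taken from the RefSeq promoter table for GRCm38.p6, which matched 4 of the 7 genes. The window listed for C1ra lies mostly inside the gene model of the deposited files, so it is not described. They read 5′ to 3′ on the strand of the gene, that is the minus strand for all 3, and end at the base before its first base. Capitals mark matches on either strand to an NF-κB motif (GGG, any 5 bases, CC) or a C/EBP motif (TTGCNNAA).
C3, chr17:57228137-57228386: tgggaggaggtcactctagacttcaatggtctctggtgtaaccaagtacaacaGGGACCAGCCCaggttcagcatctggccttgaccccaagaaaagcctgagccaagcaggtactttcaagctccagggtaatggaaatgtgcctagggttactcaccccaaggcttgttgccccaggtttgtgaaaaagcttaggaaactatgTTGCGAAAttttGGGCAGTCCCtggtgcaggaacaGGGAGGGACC
C1s1, chr6:124542360-124542609: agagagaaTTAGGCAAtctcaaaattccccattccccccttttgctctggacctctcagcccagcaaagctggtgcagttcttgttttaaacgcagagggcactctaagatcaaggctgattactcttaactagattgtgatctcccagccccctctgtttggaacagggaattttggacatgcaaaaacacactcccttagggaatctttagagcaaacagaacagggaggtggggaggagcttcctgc
Cd55, chr1:130462745-130462994: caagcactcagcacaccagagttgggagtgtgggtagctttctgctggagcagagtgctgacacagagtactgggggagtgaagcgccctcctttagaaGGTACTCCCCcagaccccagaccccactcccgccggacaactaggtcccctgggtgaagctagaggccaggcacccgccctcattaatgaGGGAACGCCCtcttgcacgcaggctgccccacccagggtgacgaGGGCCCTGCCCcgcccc

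The C3 window held 4 NF-κB matches, at 197 to 188, 196 to 187, 33 to 24 and 10 to 1 bases upstream, of which the first pair overlap each other, and 1 C/EBP match, TTGCGAAA, at 45 to 38. The C1s1 window held 1 C/EBP match, TTAGGCAA, at 242 to 235 bases, and no NF-κB match. The Cd55 window held 4 NF-κB matches, at 151 to 142, 61 to 52, 17 to 8 and 16 to 7 bases, of which the last pair overlap. Among 32851 mouse promoter windows of the same length, 45.8% held the NF-κB motif and 9.56% the C/EBP motif. None of the windows of C3, C1s1 or Cd55 held a STAT motif, TTCNNNGAA (7.02% of promoters), or an interferon response element, GAAA, any 2 bases, GAAA (2.98%). The same was true of an AP-1 motif, TGANTCA (6.75%), and a TATA box, TATAAA (12.4%), on either strand. A match is a run of letters and does not show binding.

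C3 encodes the central component, whose cleavage all 3 activation routes share. Its level was 97.5, 98.1 and 101.7 CPM (counts scaled to library size, TMM-normalised) in DMSO 1, 2 and 3 and 67.5, 60.7 and 60.1 CPM in IPRN 1, 2 and 3. The DMSO libraries lay close together and every IPRN library was below them, with IPRN 1 the highest of its group. The mean fell from 99.1 ± 2.27 to 62.8 ± 4.11 CPM (SD, n = 3), a log2 fold change of -0.66 ± 0.062 (SE, 95% interval -0.80 to -0.51, edgeR adjusted p = 0.00336). C3 (ENSMUSG00000024164, chromosome 17 from 57203970 to 57228136, minus strand, GRCm38) shares no exon stretch with another gene model.

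C1s1 encodes mouse C1s, the protease that cleaves C4 and C2. Its level was 100.9, 99.7 and 86.0 CPM in the DMSO libraries and 53.0, 64.0 and 57.5 CPM in the IPRN libraries. DMSO 3 was the lowest of its group and IPRN 2 the highest of the other, and a gap remained between them. The mean fell from 95.5 ± 8.30 to 58.2 ± 5.53 CPM (SD, n = 3), or by 0.72 ± 0.094 (SE) on the log2 scale (95% interval -0.94 to -0.49, edgeR adjusted p = 0.0125). The call was lost without DMSO 1 (adjusted p = 0.0637), DMSO 2 (0.0714) or IPRN 3 (0.0502). C1s1 (ENSMUSG00000038521, chromosome 6 from 124530345 to 124542359, minus strand, GRCm38) shares exon sequence only with Gm16567 on the opposite strand, which had a count of 0 in all libraries.

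C1ra encodes mouse C1r, which activates C1s. DMSO 1, 2 and 3 held 58.4, 54.0 and 55.0 CPM, and IPRN 1, 2 and 3 held 43.7, 37.1 and 39.1 CPM. IPRN 1 was again the highest of its group, and it stayed below the lowest DMSO library. The mean fell from 55.8 ± 2.34 to 39.97 ± 3.40 CPM (SD, n = 3), a log2 fold change of -0.48 ± 0.079 (SE, 95% interval -0.67 to -0.29, edgeR adjusted p = 0.0234). Among the fits with 1 library left out, C1ra was called only without IPRN 1 (adjusted p = 0.0120), and the fits without DMSO 1, DMSO 2, DMSO 3, IPRN 2 or IPRN 3 gave 0.0731 to 0.107. C1ra (ENSMUSG00000055172, chromosome 6 from 124512405 to 124523443, plus strand, GRCm38) shares no exon stretch with another gene model.

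Cd55 encodes decay-accelerating factor, a membrane protein that takes apart the C3-cleaving enzymes on the cell's own surface. It was the only inhibitor among the 4 genes that fell. Its level was 28.6, 30.1 and 29.4 CPM in DMSO and 23.6, 20.6 and 22.4 CPM in IPRN. The libraries of each group lay within a few CPM of one another and the groups did not overlap. The mean fell from 29.3 ± 0.743 to 22.2 ± 1.52 CPM (SD, n = 3), a log2 fold change of -0.40 ± 0.080 (SE, 95% interval -0.59 to -0.21, edgeR adjusted p = 0.0384). It was called without IPRN 1 (adjusted p = 0.0321). Leaving out any DMSO library, IPRN 2 or IPRN 3 ended the call (0.101 to 0.150), as did dropping the filter on low counts (0.0564). Cd55 (ENSMUSG00000026399, chromosome 1 from 130439027 to 130462744, minus strand, GRCm38) shares exon sequence with Gm16083 on the opposite strand, whose counts summed to 11.

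**Figure D2:**
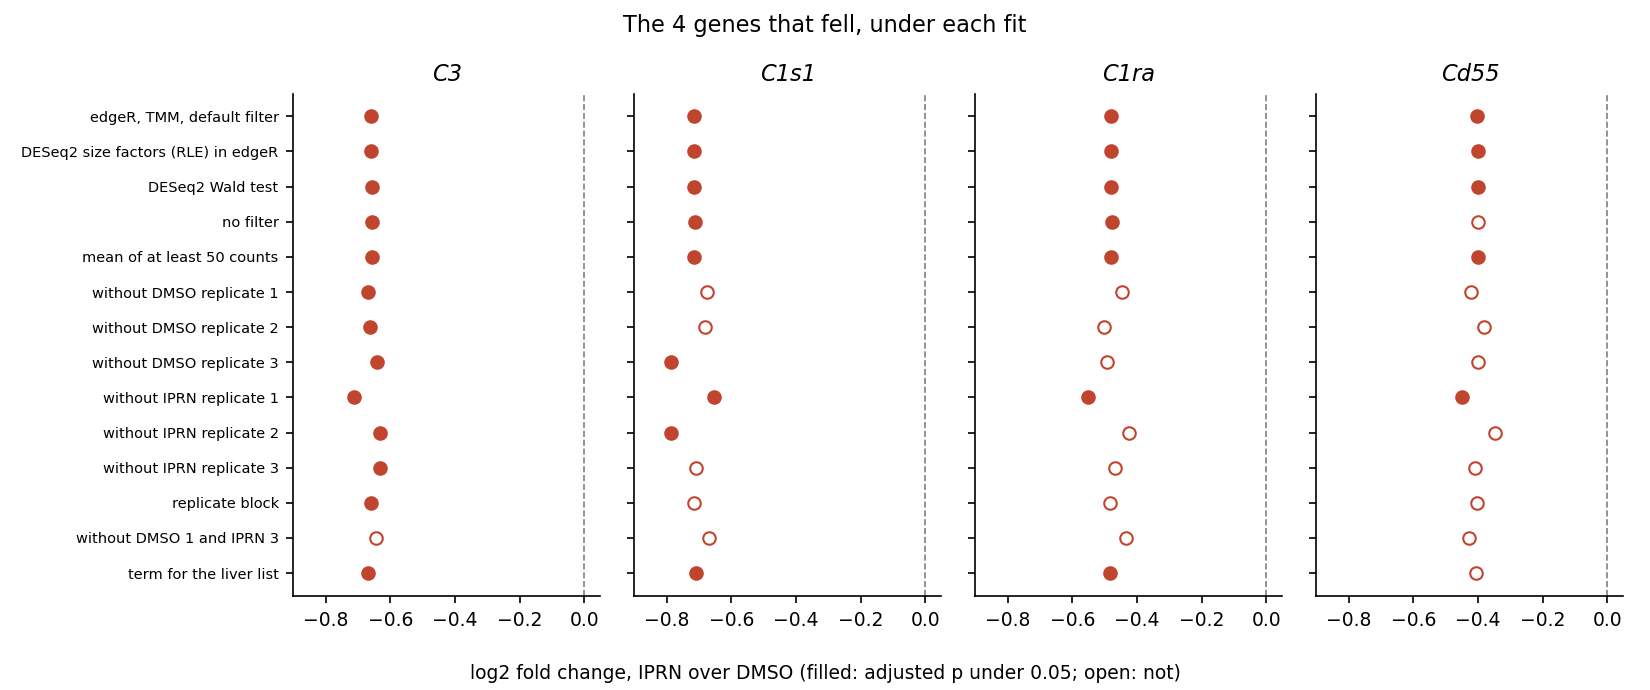
Log2 fold change (IPRN over DMSO) of C3, C1s1, C1ra and Cd55 under each fit, 1 row per fit, with filled points at an adjusted p under 0.05 and open points otherwise. All points lie left of 0. C3 is filled in every row but the fit without DMSO 1 and IPRN 3, and Cd55 is open in most rows.

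C4b encodes complement C4, the classical pathway component cleaved by C1s. Its level was 1.83, 2.62 and 3.40 CPM in DMSO and 2.50, 2.94 and 1.46 CPM in IPRN. The groups overlapped, and DMSO 1 and IPRN 3 were the lowest libraries of their groups. The log2 fold change was -0.19 with a 95% interval from -0.98 to 0.60 (edgeR adjusted p = 0.816), so a change of the size seen for C3 lies inside the interval. C4b is on chromosome 17 from 34728380 to 34743882 (ENSMUSG00000073418, minus strand, GRCm38), and its near-copy C4a, which holds 35.2% of the 50-base words of the C4b transcript, was at 1.02, 1.68 and 2.12 CPM in DMSO and 1.94, 2.01 and 1.21 CPM in IPRN. Reads that fit both copies cannot be assigned from these counts, so the value of each is uncertain.

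Cfb encodes factor B, the protease of the alternative pathway. Its level was 1.37, 1.96 and 2.10 CPM in DMSO and 2.37, 1.78 and 2.50 CPM in IPRN. IPRN 1 and IPRN 3 were the highest libraries, and IPRN 2 lay within the DMSO range. The log2 fold change was 0.29, with a 95% interval from -0.31 to 0.89 (edgeR adjusted p = 0.588). Cfb (ENSMUSG00000090231, chromosome 17 from 34856374 to 34862518, minus strand, GRCm38) shares exons with Gm20547, a model that reads through from C2 into Cfb and whose counts summed to 6.

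Serping1 encodes the C1 inhibitor, which blocks C1r and C1s in plasma. Its counts were 0, 52 and 34 in DMSO and 45, 8 and 19 in IPRN. In CPM these were 0, 0.715 and 0.433 against 0.631, 0.107 and 0.295, where 3 counts, the limit that a count of 0 allows, correspond to 0.0497 CPM in DMSO 1. The groups overlapped, and DMSO 1 had no count at all. The log2 fold change of -0.16 had a 95% interval from -3.12 to 2.80 (edgeR adjusted p = 0.964), the widest of the 7 genes, so falls and rises of several fold lie inside it. Serping1 is on chromosome 2 from 84765387 to 84775444 (ENSMUSG00000023224, minus strand, GRCm38) and shares no exon with another model.

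**Figure D3:**
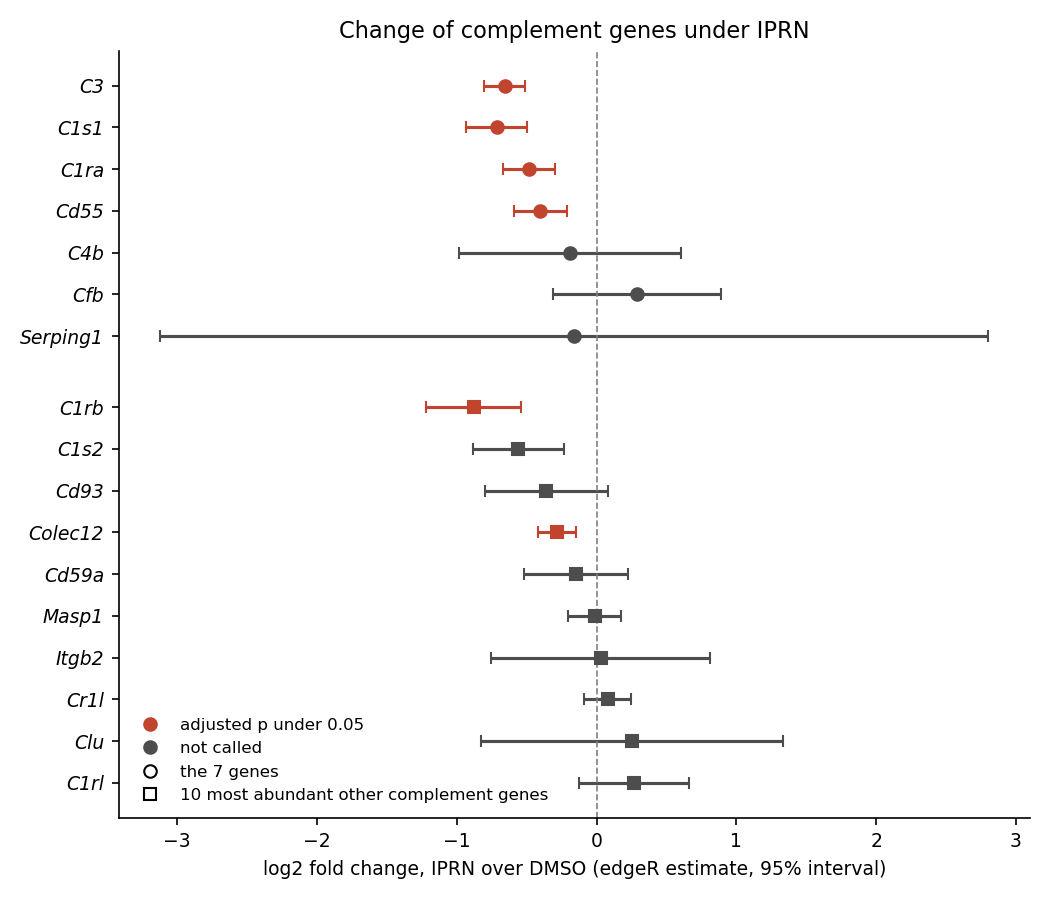
Log2 fold change (IPRN over DMSO, edgeR estimate) with its 95% interval for the 7 complement genes (circles) and the 10 other complement genes of highest mean level (squares), red at an adjusted p under 0.05. The intervals of C3, C1s1, C1ra and Cd55 lie below 0, as do those of C1rb, C1s2 and Colec12, of which C1s2 was not called, and the interval of Serping1 is the widest.

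Levels were compared between genes on the deposited FPKM scale, which divides by gene length. C1s1 had the highest mean level in DMSO, 27.4 ± 2.43 FPKM (SD, n = 3), and 16.7 ± 1.76 FPKM in IPRN. C3 and C1ra came next at 17.3 ± 0.366 and 16.8 ± 0.694 FPKM in DMSO, and 10.98 ± 0.540 and 12.1 ± 0.862 FPKM in IPRN. C1ra was above C3 in all 3 IPRN libraries (12.96, 11.2 and 11.96 against 11.6, 10.7 and 10.7 FPKM), while in DMSO it was above C3 in DMSO 1 and below it in DMSO 2 and 3. Cd55 followed with 5.42 ± 0.147 and 4.11 ± 0.243 FPKM, and Cfb, C4b and Serping1 were below 1 FPKM in both groups. Among the 17159 tested genes ordered by mean FPKM, C1s1 stood at place 1841 in DMSO and 2923 in IPRN, C3 at 2841 and 4251, C1ra at 2921 and 3938, and Cd55 at 6708 and 7726. Cfb, C4b and Serping1 stood at 12540, 13158 and 14943 in DMSO. Summed over the 7 genes, the level was 288.6, 287.1 and 277.9 CPM in DMSO and 193.4, 187.2 and 183.3 CPM in IPRN, and 97.2% to 98.9% of it came from the 4 genes that fell.

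C1ra and C1s1 are neighbours on chromosome 6, transcribed toward each other with 6901 bases between them. The FPKM ratio of C1s1 to C1ra was 1.65, 1.76 and 1.49 in the DMSO libraries and 1.15, 1.64 and 1.40 in the IPRN libraries, and the groups overlapped. Their near-copies C1rb and C1s2, which lie 57.9 and 112.2 kb from the start of C1ra, also had lower means under IPRN. C1rb fell from 12.0 ± 1.78 to 6.54 ± 0.654 CPM (log2 fold change -0.88 ± 0.14, edgeR adjusted p = 0.0233). C1s2 measured 12.5 ± 1.61 and 8.46 ± 0.965 CPM and did not pass in edgeR (adjusted p = 0.0663), although DESeq2 called it lower. C1rl, a C1r-like protease gene on the other side of C1ra, measured 4.06 and 4.88 CPM (adjusted p = 0.422).

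C1rb held 48.0% of the 50-base words of the C1ra transcript and C1s2 24.3% of those of C1s1, so the split of reads between copies is uncertain. With counts summed over the copies, the falls were called for C1ra with C1rb (log2 fold change -0.54, edgeR adjusted p = 0.0117) and for C1s1 with C1s2 (-0.70, adjusted p = 0.0110). Cd55 with its copy Cd55b, which held 13.3% of its words, gave -0.39 (adjusted p = 0.0434).

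**Figure D4:**
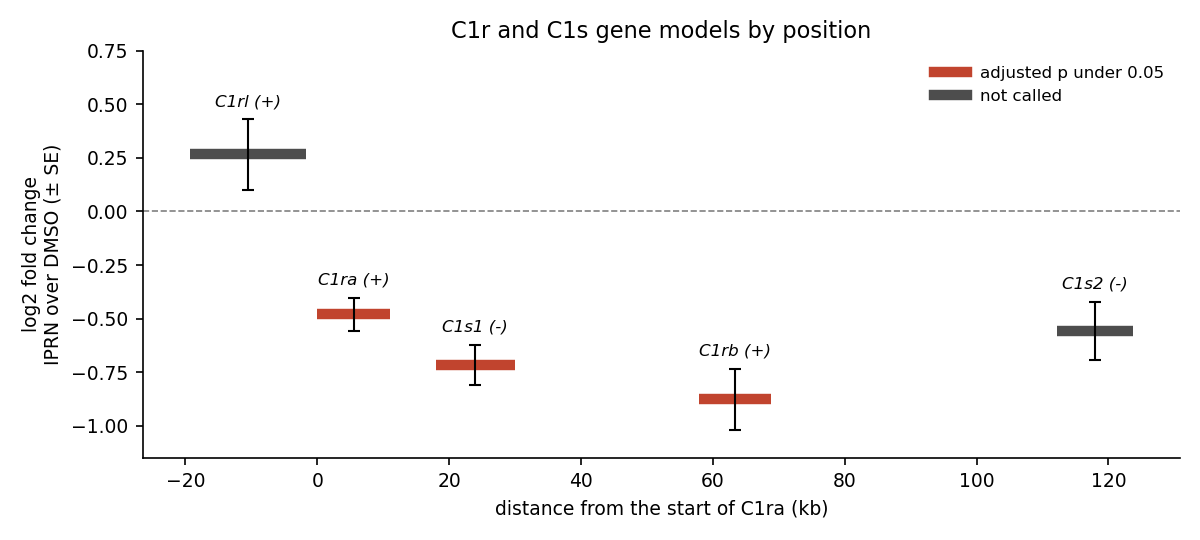
Log2 fold change (IPRN over DMSO, with SE) of the C1r and C1s gene models, drawn as bars of their length by distance in kb from the start of C1ra, with strand in brackets. C1ra, C1s1, C1rb and C1s2 lie below 0, of which C1s2 was not called, and C1rl lies above 0 and was not called.

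Beyond the 7 genes, 48 other complement genes were listed and 30 of them were tested. Of these, 2 fell (C1rb and Colec12), 0 rose and 28 did not pass, so 6.67% were called, close to the 5.47% of all genes tested. Because C1rb shares sequence with C1ra, its fall may not be separate from that of C1ra. At an unadjusted p under 0.05, 3 of the 30 were lower and 2 higher, against 10.8% and 11.2% of all genes tested. DESeq2 called 3 of the 30 lower and 0 higher, and 941 lower and 967 higher among all 12917 genes with an adjusted p. Their median log2 fold change was 0.22, against -0.40 for the 7 genes and 0.0016 for all genes tested. Colec12, a membrane scavenger receptor that can start the alternative pathway, fell from 133.4 ± 3.53 to 109.6 ± 6.61 CPM (log2 fold change -0.28, edgeR adjusted p = 0.0407). Among the fits with 1 library left out, C1rb was called without DMSO 3 (adjusted p = 0.0384) or IPRN 1 (0.0463), but the call was lost without DMSO 1 (0.0976), DMSO 2 (0.108), IPRN 2 (0.0584) or IPRN 3 (0.0731). Colec12 was called without IPRN 1 (0.0153), and leaving out DMSO 1, 2 or 3 or IPRN 2 or 3 gave 0.105 to 0.163.

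By role, 3 of 10 tested proteases fell (C1ra, C1s1 and C1rb), 1 of 5 recognition genes (Colec12), 1 of 4 central components (C3) and 1 of 5 membrane regulators (Cd55), where 3.01% of all genes tested fell. The 7 genes are counted again in these numbers, and 4 of the 6 falls are theirs. The split of reads between C1ra and C1rb is uncertain, so their falls may not be separate. Among 2 tested terminal components, 6 fluid-phase regulators and 5 receptors, 0 were called in either direction by edgeR, 0 by DESeq2, and 0 reached an unadjusted p under 0.05. Masp1, a protease of the lectin pathway, stood at 55.7 ± 2.03 CPM with DMSO and 55.2 ± 5.24 CPM with IPRN (edgeR adjusted p = 0.958, 95% interval of the log2 fold change -0.20 to 0.18). Cr1l, the rodent membrane regulator known as Crry, measured 56.4 ± 1.98 and 59.5 ± 4.48 CPM (adjusted p = 0.596). Cd59a, which blocks the terminal pore, measured 4.37 and 3.94 CPM (adjusted p = 0.662). The receptor genes Cd93 (7.31 and 5.70 CPM, adjusted p = 0.325) and Itgb2 (4.39 and 4.49 CPM, adjusted p = 0.977) and the regulator gene Clu (4.51 and 5.38 CPM, adjusted p = 0.818) also did not pass. Of the 10 tested proteases, the IPRN libraries of 4 all lay below the DMSO libraries and those of 2 all lay above them. Over all genes tested these shares were 14.7% and 14.9%. The 2 genes that lay above did not pass. C2, the partner of C4, had means of 0.499 and 1.15 CPM (adjusted p = 0.108), and Masp2, a protease of the lectin pathway, had 0.385 and 0.816 CPM (adjusted p = 0.180). C2 shares exons with Zbtb12 and Gm20547, and Masp2 with Tardbp on the opposite strand, so both values are uncertain. Fcnb, Mbl1, Mbl2 and C7 were at 0 in all 6 libraries.

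Cytokines known to induce complement genes, with receptors, kinases and transcription factors of their signalling, were counted as a second list. Of its 22 tested genes, 3 were called lower, 1 was called higher and 18 were not called, so 18.2% were called against 5.47% of all genes tested, and the median log2 fold change was -0.035. DESeq2 called 4 lower and 3 higher, where over all 12917 genes with an adjusted p it called 941 lower and 967 higher. The groups did not overlap for 5 on the lower and 3 on the higher side, against 14.7% and 14.9% of all genes tested. Il6, the acute phase cytokine, fell from 19.7 ± 0.910 to 6.04 ± 0.534 CPM (log2 fold change -1.71 ± 0.10, edgeR adjusted p = 0.000473). Il1r1, the interleukin-1 receptor gene, fell from 65.5 to 42.0 CPM (adjusted p = 0.0181), and Cebpd, a C/EBP family transcription factor gene, fell from 249.7 to 177.2 CPM (adjusted p = 0.0353). Il6 was called whichever library was left out. Il1r1 was not called without DMSO 1, 2 or 3 (0.0776 to 0.0912), and Cebpd was called without IPRN 1 (0.00158) but in no other fit with 1 library left out (0.0990 to 0.134). Cebpd shares an exon stretch with Spidr on the opposite strand, so its value is uncertain. Stat2, a mediator of interferon signals, rose from 10.4 to 14.9 CPM (adjusted p = 0.0478), and it was not called with any 1 of the 6 libraries left out (0.0676 to 0.170). Irf1, an interferon-responsive transcription factor gene, had means of 11.1 ± 3.73 and 21.6 ± 1.48 CPM with groups that did not overlap, and it did not pass (adjusted p = 0.0726). Whether these genes bear on the 7 complement genes was not tested.

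The genes whose profiles over the 6 libraries were nearest to those of the 4 that fell were found among 10526 genes that averaged 5 CPM or more. The measure was the root mean square difference of log2 CPM after each profile was centred on its mean. Nearest to C3 were Il1rl1 (0.0229), Ccn1 (0.0245) and Dusp6 (0.0511), and nearest to Cd55 were Elmsan1 (0.0198), Ptbp2 (0.0314) and Gprc5a (0.0320). Nearest to C1ra were Cd34 (0.0207), Pvr (0.0319) and Cyth3 (0.0360), and nearest to C1s1 were Plau (0.0530), Stard4 (0.0632) and Tnfaip6 (0.0666). Of these, Il1rl1 encodes the receptor for interleukin-33, Dusp6 a phosphatase of ERK, Plau the urokinase protease and Cd34 a surface sialomucin. The profiles share 6 libraries, so nearness is a description.

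Without DMSO 1 and IPRN 3, the log2 fold change was -0.64 for C3, -0.67 for C1s1, -0.43 for C1ra and -0.43 for Cd55. On those 4 libraries 0 of the 7 genes were called by edgeR (adjusted p = 0.102 for C3, 0.185 for C1s1, 0.232 for C1ra and 0.249 for Cd55). Over all genes, only 53 of 17638 tested were called in that fit. At an unadjusted p under 0.05, 1291 of the 17638 were lower, and so were 4 of the 7. No other tool was run. Since the groups of these 4 genes do not overlap, their direction is fixed in any such subset. With a term for the liver list, C3, C1s1 and C1ra were called and Cd55 was not (adjusted p = 0.0653). The part of liver RNA in these falls was not tested further.

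Among the genes not called, C4b and C4a were lowest within their groups in DMSO 1 and IPRN 3. Serping1 was at 0 in DMSO 1, but among the IPRN libraries it was lowest in IPRN 2. Cfb was lowest in DMSO 1 and highest in IPRN 3. Hc, which encodes C5, had counts of 0, 16 and 26 in DMSO and 38, 4 and 0 in IPRN, so it was at 0 in the same pair of libraries that lacked most liver markers. C1qa, which encodes a chain of C1q, had counts of 0, 27 and 26 in DMSO and 23, 22 and 152 in IPRN, and Itgam, a subunit of complement receptor 3, had 0, 26 and 54 against 32, 45 and 839. IPRN 3 was by far the highest library for both and for the macrophage lysozyme gene Lyz2. The part of liver or macrophage RNA in these low levels was not tested.

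**Figure D5:**
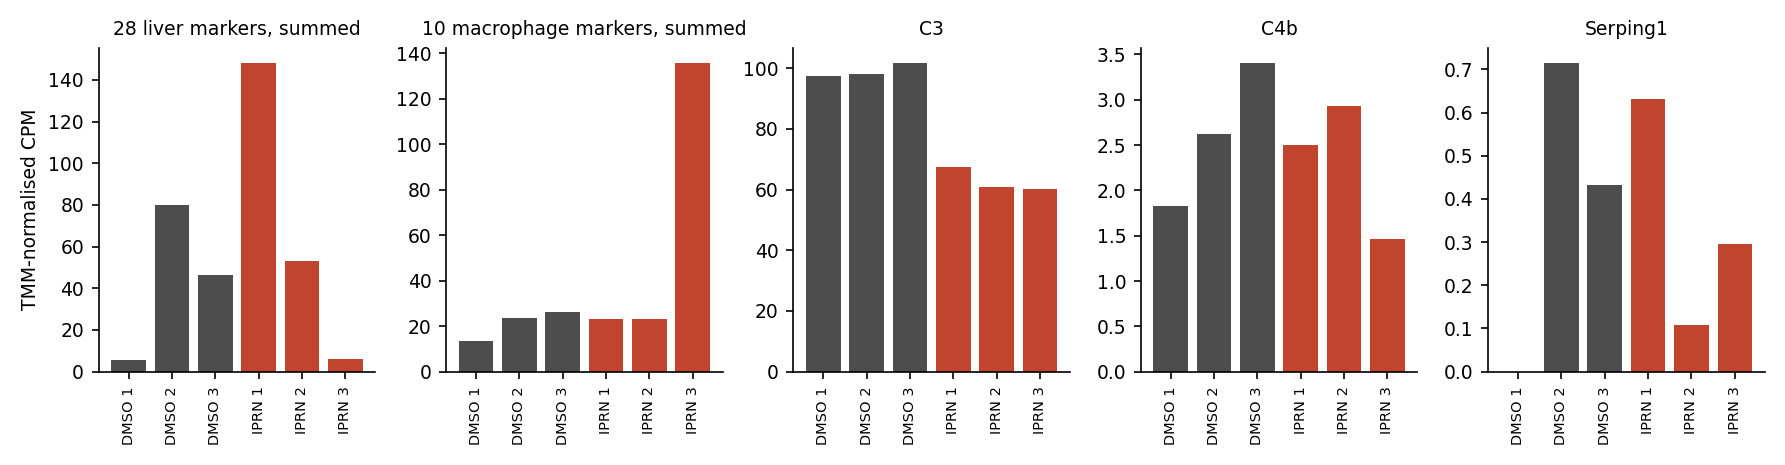
Summed level of 28 liver markers and 10 macrophage markers and the levels of C3, C4b and Serping1 in each library, as TMM-normalised CPM (bars from 0, 1 bar per library, DMSO grey and IPRN red). Liver markers are lowest in DMSO 1 and IPRN 3, macrophage markers are highest in IPRN 3, and C3 is lower in every IPRN library than in every DMSO library.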

How the data were processed

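Messenger RNA was sequenced from 6 libraries of NIH3T3 cells, 3 given DMSO and 3 given IPRN, grouped by their labels. Per the labels' protocols, RNA was captured on oligo(dT) beads and primed with random hexamers, with no step that marks the strand, so reads of a gene and of its antisense partner look alike. The authors deposited whole-number counts per Ensembl gene and FPKM values, per the file headers. The deposited counts were tested, and the deposited FPKM values were used only to compare levels between genes. The submitters' processing notes name cutadapt 1.9. Aligner, counter and genome build were not given in the sources used here. Among 55141 gene IDs shared with GENCODE M21, 51920 (94.2%) had the same position on GRCm38, the build used for positions.

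Total counts ran from 60320282 to 78629444 per library, and 20228 to 21941 genes had a count. A floor of 3 counts was 0.0382 to 0.0497 CPM, which covers counting error only. Each library counted as 1 sample, since the chi-square of replicate pairs was 31.2 to 88.8 times its degrees of freedom. Counts were fitted in R 4.3.3 with edgeR 4.0.16 (TMM, its expression filter with a minimum count of 10, group as the only term). The quasi-likelihood test was two-sided, with Benjamini-Hochberg adjustment over 17159 genes and a threshold of 0.05. Adjusted p-values come from edgeR unless DESeq2 1.42.0, used as an alternative, is named. Standard errors were derived from the fold change and the F statistic. The fit was tested on simulated data for the same comparison (16467 genes): it found 26.9% of 67 genes set to 1.5-fold, 74.6% of 67 set to 2-fold and 93.9% of 66 set to 4-fold, and 8.45% of its calls were false. Near-copies were compared by shared 50-base words of their transcripts.

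The 7 genes and the lists were chosen with earlier results of these data known. Named were the 7 genes, other complement genes that were called or among the 10 most abundant, up to 8 called members of the inducer list, near-copies and the 3 nearest profiles of each called gene. C2, Masp2, Irf1, C1qa, Hc, Itgam, the marker genes and the genes at 0 were named after their values were seen. Alternatives were DESeq2's size factors, DESeq2, no filter, a mean of at least 50 counts, each library left out, a replicate block, leaving out DMSO 1 and IPRN 3, a term for the liver list, summed copies and a fold change without a prior count.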

Additional observations from a re-analysis of the deposited data

How the results depend on the processing

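Over all genes, the count of 938 changed genes was 941 with DESeq2's size factors, 1161 with a mean of at least 50 counts, 1908 in DESeq2, 621 with no filter, 53 without DMSO 1 and IPRN 3, 474 with a term for the liver list, and 133 (without DMSO 1) to 1047 (without IPRN 1) with 1 library left out. Of the 7 complement genes, 4 were called with DESeq2's size factors, in DESeq2, with the stricter filter and with copies summed, 3 with no filter or a liver term, 0 without DMSO 1 and IPRN 3, and 1 to 4 with 1 library left out. Of 59 recomputed values for the 4 that fell, 22 were no longer called. For each gene the 59 include the fold change without a prior count, which had no p-value and so could not lose a call. C3 was called in 12 of 13 alternatives, C1s1 in 8, C1ra in 6 and Cd55 in 4. With 1 library left out, the log2 fold change ran from -0.71 to -0.63 for C3, -0.79 to -0.65 for C1s1, -0.55 to -0.43 for C1ra and -0.45 to -0.35 for Cd55.

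No pairing by replicate number was seen: same-numbered deviations correlated at 0.065, -0.015 and -0.020 over 10535 genes, and libraries did not all correlate best with their own number. With 3 libraries per group, such correlations cannot show that the libraries were unpaired. With the replicate block, 103 genes and 1 of the 7 (C3, adjusted p = 0.0425) were called. Under the block the log2 fold change was 0.063 for Serping1, -0.052 for Itgb2 and -0.39 for Cd55b.

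The groups of the named genes that were called did not overlap, so leaving out libraries could not turn their signs. Signs turned only for genes that were not called. With a liver term the values were 0.18 for Serping1, -0.032 for Clu, -0.013 for Itgb2 and -0.47 for Cd55b, and without DMSO 1 and IPRN 3 they were 0.0084 for Masp1 and -0.49 for Itgb2. With 1 library left out they ran from -0.93 to 0.65 for Serping1, -0.40 to 0.048 for C4b, -0.093 to 0.030 for Masp1, -0.21 to 0.62 for Clu, -0.43 to 0.23 for Itgb2, -0.14 to 0.35 for C4a and -0.28 to 1.01 for Cd55b. C1s2 passed in DESeq2. The causes were not tested. Serping1 had 0 to 52 counts per library, and within DMSO it ran from 0 to 52, beyond the 3 counts that a count of 0 allows.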
